A study of Mus musculus with 9 samples.

Results

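Astrocyte genes are described here as a set of 32 genes, chosen by name and by no rule on the values of these arrays. The choice was made with earlier results of these data known, so it is not independent of them. Members were found through the RefSeq accession of each array probe, and 30 of the 32 were named on the array. Gjb6 and Slc25a18 had no probe matched in this way and were not analysed here. In the whole series 16358 genes were named and 12622 entered the statistical fit. All 30 measured astrocyte genes entered the fit, and all 30 were well above background on all 9 arrays, so no member had to pass through 1 group alone.

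Levels of messenger RNA were measured on 9 Agilent arrays of the whole mouse genome, each carrying a single sample labelled with the dye Cy3, in wild-type (WT) male C57BL/6J mice aged 8 to 9 weeks. Samples of the amygdala, the hypothalamus and the prefrontal cortex came from mice on 3 feeding regimens. AD mice had food ad libitum and were the controls, RFR mice went through repeated fasting and refeeding, and CR mice (caloric restriction) received 0.5 of the amount eaten by RFR mice. Each array held RNA pooled in equal amounts from 4 mice on day 8 of a regimen that was repeated up to day 16, so each region and diet has 1 array and no replicate. All groups share the strain, the genotype and the sex, and all mice were anaesthetised with diethyl ether, killed at 14:00 and perfused with cold saline. The labels used here do not state whether RFR mice were fasting or refed at that hour. Tissue came from coronal sections of 1 mm, and the labels give 1.5 to 2.5 mm posterior to bregma for amygdala and hypothalamus. For the prefrontal cortex they give 2.5 to 3.5 mm, also as posterior, although this cortex lies anterior to bregma, so that the stated position is in doubt. Because whole tissue was measured, fewer astrocytes and less RNA per astrocyte cannot be told apart.

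Astrocytes are glial cells that take up glutamate and potassium after neuronal activity, supply neurons with metabolites, and cover blood vessels with endfeet rich in water channels. They are coupled to each other by gap junctions, store the glycogen of the brain, and secrete lipoproteins and matrix proteins. In the hypothalamus they border neurons that sense nutrients, and their content of glial filaments is known to differ strongly between brain regions.

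Levels are log2 values of the processed signal after subtraction of each array's own 75th percentile, so 1 unit is a doubling and 0 is the level of the 75th percentile spot. A level belongs to 1 probe and can be compared between arrays but not between genes. Values of 3 arrays of a region are always given in the order AD, CR and RFR. One limma model with region and diet as terms gave both kinds of contrast (4 residual degrees of freedom), and a gene is called at a Benjamini-Hochberg adjusted p under 0.05 over all 12622 genes. The 3 arrays of a region come from separate pools, and the 3 arrays of a diet come from the same mice. Diet is therefore the pairing block of every region contrast, while p-values for diets are too small.

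RefSeq promoter sequences (build GRCm38.p6) matched 27 of the 32 members, with 31 start sites; the members without an entry were Aqp4, Atp1b2, Clu, Sox9 and Sparcl1. The 250 bases before the start are printed for 4 genes on which the results turn. Itih3 and Sparc had the largest differences between regions, Slc1a2 the largest difference in the opposite direction, and Hes5 had the smallest adjusted p of a diet difference. Capitals mark matches, on either strand, to GTGGGAA, the core recognised by RBPJ, the DNA-binding partner of Notch, or to TTCNNNGAA, the core recognised by STAT factors, or to TTGGCA, a site for a single NFI subunit. NFI and STAT factors are regulators of astrocyte genes. All 4 are printed 5′ to 3′ in the direction of transcription. Itih3 lies on the minus strand at chr14:30923588-30923837, Sparc on the minus strand at chr11:55420081-55420330, Slc1a2 on the plus strand at chr2:102706188-102706437, and Hes5 on the plus strand at chr4:154960673-154960922.
Itih3: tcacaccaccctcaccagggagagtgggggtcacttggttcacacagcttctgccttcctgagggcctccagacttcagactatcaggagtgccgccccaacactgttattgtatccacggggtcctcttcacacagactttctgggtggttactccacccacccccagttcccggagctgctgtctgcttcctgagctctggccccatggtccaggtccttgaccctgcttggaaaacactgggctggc
Sparc: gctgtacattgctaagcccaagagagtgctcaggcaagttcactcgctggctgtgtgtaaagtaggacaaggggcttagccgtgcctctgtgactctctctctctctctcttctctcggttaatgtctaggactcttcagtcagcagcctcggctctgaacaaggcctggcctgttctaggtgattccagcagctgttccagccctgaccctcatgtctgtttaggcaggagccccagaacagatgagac
Slc1a2: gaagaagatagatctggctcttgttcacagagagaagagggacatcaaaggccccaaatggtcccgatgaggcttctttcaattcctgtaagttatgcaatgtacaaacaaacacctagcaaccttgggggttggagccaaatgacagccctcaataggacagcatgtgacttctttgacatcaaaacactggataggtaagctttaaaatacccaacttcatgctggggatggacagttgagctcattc
Hes5: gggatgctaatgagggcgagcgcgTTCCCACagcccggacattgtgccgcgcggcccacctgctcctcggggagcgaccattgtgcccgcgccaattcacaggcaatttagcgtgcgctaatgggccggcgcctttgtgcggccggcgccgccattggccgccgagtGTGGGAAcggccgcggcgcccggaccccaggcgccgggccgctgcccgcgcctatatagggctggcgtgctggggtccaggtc

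The Hes5 window held 2 matches to the RBPJ core, beginning 226 and 83 bases before the start site, and Hes5 was the only 1 of the 27 matched members with this core. Among all 32851 promoter windows of the same length, 5.42% held it. The STAT core was found for 4 members, Acsbg1, Ntsr2, Pla2g7 and Slc1a3, and in 7.02% of all windows. The NFI site was found for Apoe and S100b, and in 12.3% of all windows. The windows of Itih3, Sparc and Slc1a2 held none of these letters. These matches are descriptions of the windows and say nothing about binding.

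Region markers were compared first. All 8 hypothalamic neuron genes tested were higher in the hypothalamus than in the prefrontal cortex, and all 5 cortical neuron genes were lower. Of 4 amygdala neuron genes, 3 were called higher in the amygdala than in the hypothalamus, and 3 were called higher and 1 lower than in the prefrontal cortex. The share of spots well above background ran from 59.8% to 69.6% per array, and no probe of a member was saturated on any array. The number of arrays limits the precision.

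**Figure D1:**
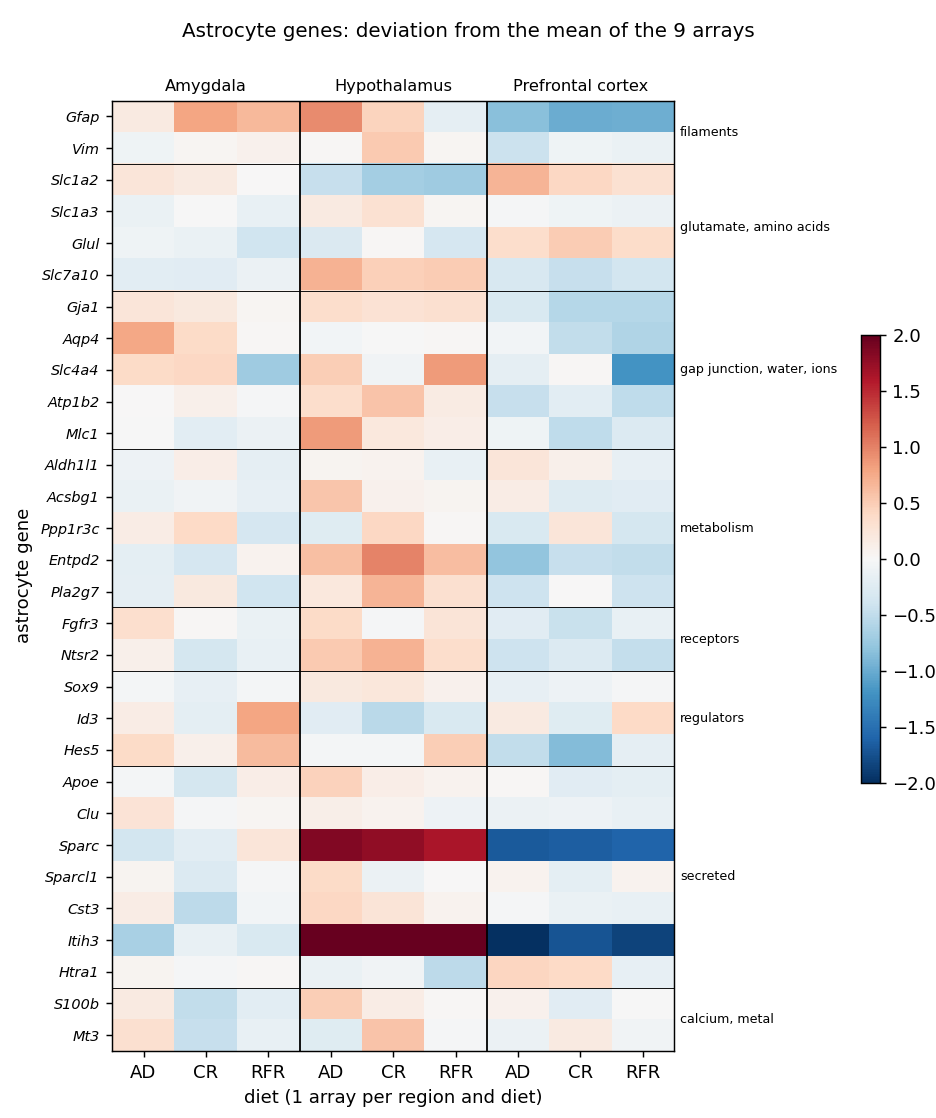
Deviation of each of the 30 measured astrocyte genes (vertical axis, grouped by role) from its mean over the 9 arrays, in log2 units, with 1 column per region and diet. Itih3 and Sparc are high on all 3 hypothalamus arrays and low on all 3 prefrontal cortex arrays, while Slc1a2 runs the other way.

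The question of the region comparison is where astrocyte transcripts are most abundant. Among the genes with the largest differences, Itih3 and Sparc were highest in the hypothalamus and lowest in the prefrontal cortex, while Slc1a2 was lowest in the hypothalamus. Of the 30 members, 18 were called in at least 1 of the 3 region contrasts and 12 in none. In the same fit 53% of all genes were called in at least 1. The order hypothalamus, amygdala, prefrontal cortex was the order of the means for 14 members. The hypothalamus array was the highest of the 3 regions in every diet for 14 members, and the prefrontal cortex array was the lowest in every diet for 14. These orders were not counted over all genes, so the counts describe the members and do not set them apart from other genes.

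Between the hypothalamus and the prefrontal cortex, 13 members were higher in the hypothalamus, where 26.7% of all genes were called, and 4 were lower, where 21.3% were called. The median difference of the 30 members was 0.36 log2 units, against 0.06 over all genes. Between the amygdala and the hypothalamus, 2 members were higher in the amygdala (13.5% of all genes) and 8 were lower (15.9%), with a median of -0.23 against -0.06. Between the amygdala and the prefrontal cortex, 7 were higher in the amygdala (12.1%) and 1 was lower (10.2%), with a median of 0.19 against 0.00. The hypothalamus was above both other regions with both calls for 8 members, as for 13.8% of all genes. It was below both for Slc1a2 and Id3 alone, as for 11.1% of all genes.

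**Figure D2:**
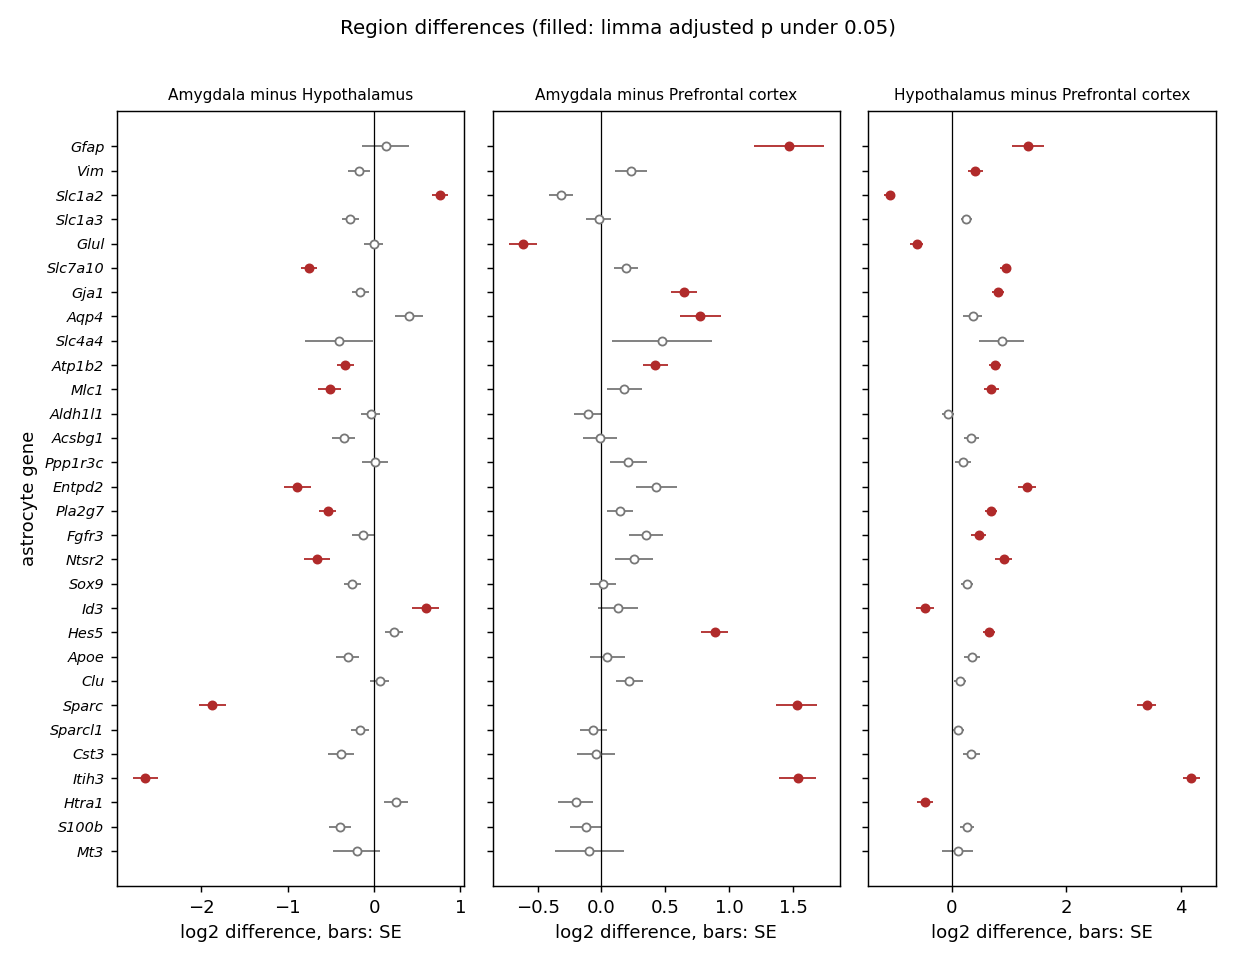
Log2 difference between regions (horizontal axis, each panel with its own scale) of the 30 measured astrocyte genes, with bars for 1 SE on either side; filled points passed the limma threshold and open points did not. Itih3 reaches 4.19 and Sparc 3.40 in the hypothalamus against the prefrontal cortex, and Slc1a2 lies at -1.08.

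Among the secreted proteins, Itih3 encodes a heavy chain of the inter-alpha-trypsin inhibitors, which bind hyaluronan in the extracellular matrix. Its level was 3.05, 3.55 and 3.40 in the amygdala, 6.09, 6.05 and 5.80 in the hypothalamus, and 1.54, 1.98 and 1.86 in the prefrontal cortex. The 3 regions did not overlap, and the spread over diets within a region was at most 0.49. Itih3 was 4.19 log2 units higher in the hypothalamus than in the prefrontal cortex (SE 0.15, 18.2-fold, adjusted p = 2.66e-06). It was also higher there than in the amygdala by 6.27-fold (adjusted p = 5.57e-05), and the amygdala was above the prefrontal cortex by 2.91-fold (adjusted p = 0.000565). Within the AD diet, whose 3 arrays lie on 1 slide, the difference between hypothalamus and prefrontal cortex was 4.54.

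Sparc encodes a matricellular protein that binds collagen and is also made by endothelial cells and microglia. Its level was 4.07, 4.22 and 4.68 in the amygdala, 6.29, 6.22 and 6.08 in the hypothalamus, and 2.75, 2.80 and 2.83 in the prefrontal cortex. All arrays of a region lay apart from those of the other regions. The hypothalamus exceeded the prefrontal cortex by 3.40 log2 units (SE 0.16, 10.6-fold, adjusted p = 8.4e-06) and the amygdala by 3.66-fold (adjusted p = 0.000314). The second Sparc probe gave 3.25 for the first of these differences. Of the markers of these cells, 5 of 12 endothelial and mural genes and 6 of 11 microglial genes were called lower in the hypothalamus than in the prefrontal cortex, and none higher, beside 21.3% and 26.7% of all genes. The part of these cells in the Sparc difference was not tested.

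Htra1, a secreted serine protease, went the other way between these regions. Its level was 5.49, 5.42 and 5.45 in the amygdala, 5.30, 5.37 and 4.92 in the hypothalamus, and 5.87, 5.83 and 5.27 in the prefrontal cortex. The RFR array of the prefrontal cortex lay below 2 hypothalamus arrays, so the groups overlapped, although Htra1 was called lower in the hypothalamus (-0.46, SE 0.14, adjusted p = 0.0305), a call kept in 12 of 22 alternatives. The lipoprotein Apoe, the chaperone Clu, the synapse-associated Sparcl1 and the protease inhibitor Cst3 were not called between any regions. Their largest difference between region means was 0.39 log2 units, for Cst3.

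Glutamate and amino acid handling split by gene. Slc1a2 encodes the main glutamate transporter of forebrain astrocytes. Its level was 2.12, 2.05 and 1.88 in the amygdala, 1.41, 1.18 and 1.16 in the hypothalamus, and 2.55, 2.29 and 2.18 in the prefrontal cortex. Every hypothalamus array lay below every array of the other regions. Slc1a2 was 2.12-fold lower in the hypothalamus than in the prefrontal cortex (log2 difference -1.08, SE 0.09, adjusted p = 0.000112) and 1.70-fold higher in the amygdala than in the hypothalamus (adjusted p = 0.00143). Its second probe gave -1.71 and 1.01 for the same contrasts.

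Glul encodes glutamine synthetase, which converts glutamate to glutamine in astrocytes. Its level was 5.33, 5.28 and 5.02 in the amygdala, 5.12, 5.44 and 5.09 in the hypothalamus, and 5.78, 5.92 and 5.79 in the prefrontal cortex. Each prefrontal cortex array was above all others. Glul was the only member called higher in the prefrontal cortex than in both other regions, as were 8.66% of all genes, with differences of 0.62 against the amygdala (adjusted p = 0.00815) and 0.61 against the hypothalamus (adjusted p = 0.00363; SE 0.11 for both). Slc1a3, the other astrocytic glutamate transporter, was highest in the hypothalamus in every diet, but no region difference passed the threshold (hypothalamus minus amygdala 0.28, SE 0.10, adjusted p = 0.0733).

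Slc7a10 encodes a transporter of small neutral amino acids such as glycine and serine. Its level was 2.04, 2.01 and 2.13 in the amygdala, 2.94, 2.73 and 2.76 in the hypothalamus, and 1.93, 1.79 and 1.88 in the prefrontal cortex. It was higher in the hypothalamus than in the prefrontal cortex by 0.94 log2 units (SE 0.10, adjusted p = 0.000243) and than in the amygdala by 1.68-fold (adjusted p = 0.0017). The transporters of this group therefore did not share a direction, since Slc1a2 was lowest and Slc7a10 highest in the hypothalamus.

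**Figure D3:**
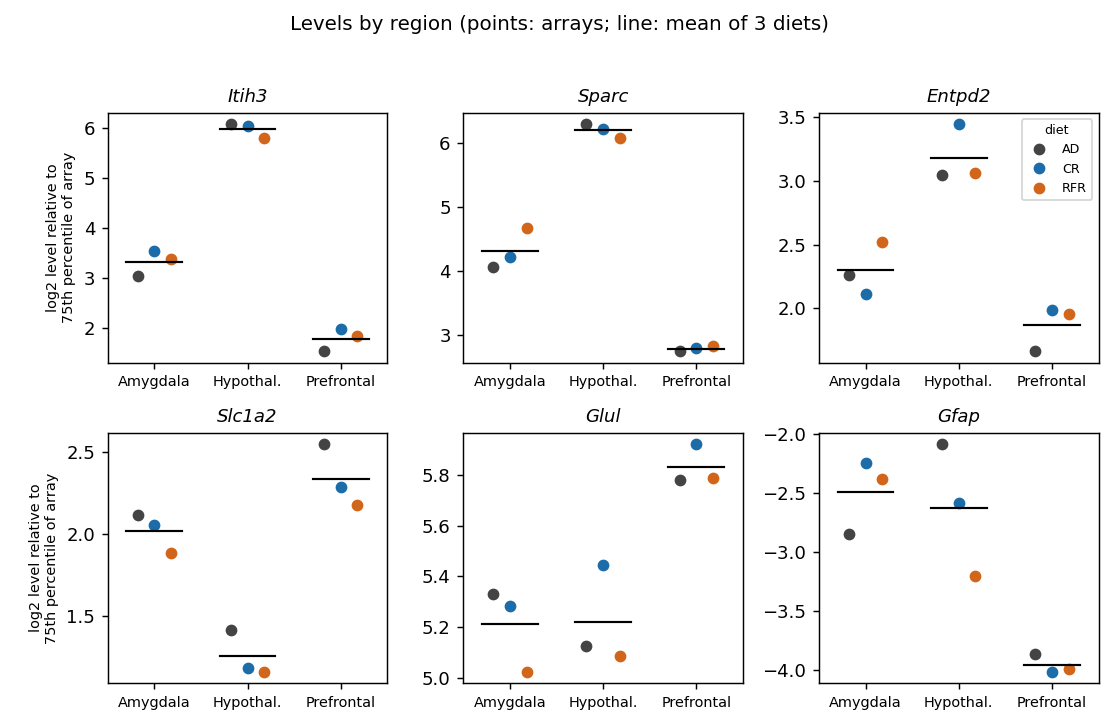
Log2 level above the array's 75th percentile (vertical axis, scaled for each gene) in the 3 regions, with 1 point per array coloured by diet and a line at the mean of the 3 diets. Hypothalamus arrays are highest for Itih3, Sparc and Entpd2 and lowest for Slc1a2, and Gfap is lowest in the prefrontal cortex.

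Gfap and Vim encode intermediate filament proteins. Gfap, the classical marker of fibrous and reactive astrocytes, had a level of -2.85, -2.24 and -2.38 in the amygdala, -2.08, -2.58 and -3.20 in the hypothalamus, and -3.87, -4.01 and -3.99 in the prefrontal cortex. The probe was dim but well above background on all 9 arrays. All prefrontal cortex arrays were below the others, while amygdala and hypothalamus overlapped. Gfap was 2.77-fold higher in the amygdala than in the prefrontal cortex (1.47 log2 units, SE 0.28, adjusted p = 0.0101) and 2.52-fold higher in the hypothalamus (adjusted p = 0.0066). Vim was called between hypothalamus and prefrontal cortex alone, by 0.41 log2 units (SE 0.13, adjusted p = 0.0326, kept in 10 of 22 alternatives), and its 9 levels ran from 1.28 to 2.24.

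Among the gap junction, water and ion genes, Gja1, Atp1b2 and Mlc1 had their lowest array in the prefrontal cortex in every diet, while the lowest region of Aqp4 and Slc4a4 varied with the diet. Gja1, which encodes connexin 43, the principal gap junction protein of astrocytes, had a level of 1.17, 1.12 and 0.96 in the amygdala, 1.27, 1.22 and 1.24 in the hypothalamus, and 0.61, 0.34 and 0.35 in the prefrontal cortex. It was higher by 0.65 in the amygdala (SE 0.10, adjusted p = 0.00443) and by 0.81 in the hypothalamus (adjusted p = 0.000617) than in the prefrontal cortex. The amygdala and hypothalamus arrays did not overlap, but their difference of 0.16 was not called (adjusted p = 0.273).

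Atp1b2 encodes a beta subunit of the sodium-potassium pump. Its level was 2.31, 2.41 and 2.29 in the amygdala, 2.67, 2.88 and 2.47 in the hypothalamus, and 1.84, 2.10 and 1.81 in the prefrontal cortex. Together with Itih3 and Sparc it was 1 of 3 members called in all 3 contrasts, with the hypothalamus 0.76 above the prefrontal cortex (SE 0.10, adjusted p = 0.000782) and 0.33 above the amygdala (adjusted p = 0.0418), a call kept in 6 of 22 alternatives. Mlc1, a membrane protein of astrocyte endfeet, had a level of 5.12, 4.91 and 4.999 in the amygdala, 5.98, 5.34 and 5.26 in the hypothalamus, and 5.03, 4.61 and 4.85 in the prefrontal cortex. Its hypothalamus arrays were above all others, by 0.69 against the prefrontal cortex (SE 0.14, adjusted p = 0.00552) and 0.52 against the amygdala (adjusted p = 0.0303), a call kept in 10 of 22 alternatives.

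Aqp4 encodes the water channel of endfeet. Its level was 1.45, 1.05 and 0.69 in the amygdala, 0.62, 0.66 and 0.69 in the hypothalamus, and 0.62, 0.19 and 0.07 in the prefrontal cortex. The amygdala was the highest region in AD and CR and level with the hypothalamus in RFR, and was called above the prefrontal cortex by 0.77 (SE 0.16, adjusted p = 0.0158). The other Aqp4 probes gave 0.72 and 0.68 for this difference. Slc4a4, a sodium bicarbonate cotransporter, was dim, between -3.48 and -1.43, and was not called.

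Of the 5 metabolic enzymes and regulators, Entpd2 and Pla2g7 were called. Entpd2 is a cell-surface enzyme that hydrolyses ATP. Its level was 2.26, 2.11 and 2.52 in the amygdala, 3.05, 3.45 and 3.06 in the hypothalamus, and 1.66, 1.98 and 1.95 in the prefrontal cortex. The 3 regions did not overlap, with the hypothalamus 2.49-fold above the prefrontal cortex (1.32 log2 units, SE 0.16, adjusted p = 0.000537) and 1.85-fold above the amygdala (adjusted p = 0.00645). Pla2g7, which inactivates platelet-activating factor, had a level of 1.00, 1.38 and 0.78 in the amygdala, 1.40, 1.87 and 1.51 in the hypothalamus, and 0.77, 1.19 and 0.77 in the prefrontal cortex. It was higher in the hypothalamus by 0.68 against the prefrontal cortex (SE 0.10, adjusted p = 0.00149) and by 0.54 against the amygdala (adjusted p = 0.00802). Aldh1l1, a folate enzyme used as a marker of all astrocytes, was nearly level across regions: its region means differed by at most 0.11, and its 9 values ran from 2.22 to 2.63. Acsbg1, an acyl-CoA synthetase, and Ppp1r3c, which targets a phosphatase to glycogen, were not called between regions either.

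Both receptors were called. Ntsr2, a neurotensin receptor, had a level of 3.75, 3.28 and 3.49 in the amygdala, 4.16, 4.34 and 3.99 in the hypothalamus, and 3.22, 3.37 and 3.17 in the prefrontal cortex. It was higher in the hypothalamus than in the prefrontal cortex by 0.91 (SE 0.15, adjusted p = 0.00228) and than in the amygdala by 1.58-fold (adjusted p = 0.0162). Its second probe gave 1.00 and -0.59 for hypothalamus minus prefrontal cortex and for amygdala minus hypothalamus. Fgfr3, a fibroblast growth factor receptor, was called between hypothalamus and prefrontal cortex alone, by 0.48 (SE 0.13, adjusted p = 0.0214), a call kept in 14 of 22 alternatives.

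Of the transcription regulators, Hes5, a repressor induced by Notch signalling, had a level of 4.29, 4.01 and 4.55 in the amygdala, 3.88, 3.88 and 4.41 in the hypothalamus, and 3.41, 3.05 and 3.73 in the prefrontal cortex. It was higher in the amygdala than in the prefrontal cortex by 0.89 (SE 0.11, adjusted p = 0.00157), and in the hypothalamus by 0.66 (adjusted p = 0.0023). Id3, an inhibitor of DNA binding induced by BMP signalling and also abundant in endothelial cells, had a level of 1.71, 1.37 and 2.35 in the amygdala, 1.35, 1.03 and 1.26 in the hypothalamus, and 1.76, 1.32 and 1.97 in the prefrontal cortex. It was lowest in the hypothalamus in every diet, by 0.60 against the amygdala (SE 0.16, adjusted p = 0.03, kept in 11 of 22 alternatives). Against the prefrontal cortex the difference was -0.47 (adjusted p = 0.0466, kept in 8 of 22), and the arrays overlapped. Sox9, which specifies glia, was not called, with region means that differed by at most 0.26.

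S100b, a calcium-binding protein, and Mt3, a brain metallothionein that binds zinc, were not called between regions. The region means of S100b differed by at most 0.39 and those of Mt3 by at most 0.20.

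Slides bear on these contrasts, because the 9 arrays lie on 3 slides, each read in a scan of its own. Slide 1 held the 3 AD arrays and the RFR prefrontal cortex, slide 2 the RFR amygdala, RFR hypothalamus, CR hypothalamus and CR prefrontal cortex, and slide 3 the CR amygdala alone. All 35 calls of members in the 3 region contrasts, 10, 8 and 17, had the sign of the fitted difference in each of the 3 diets, including the pairs of arrays that share a slide. Such pairs came from 1 diet for amygdala minus prefrontal cortex and from 2 diets for each other contrast. The signs come from the same arrays that made the calls, so they were likely to match. They are no separate check on the slides. With slide as a further term, the calls between amygdala and prefrontal cortex went from 8 to 4 for members. Over all 12622 genes they went from 2814 to 1390, and the residual degrees of freedom from 4 to 2.

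A further 40 genes known from astrocytes, 39 of which were fitted, were listed beside the members. Between hypothalamus and prefrontal cortex, 20 were called higher in the hypothalamus (26.7% of all genes) and 9 lower (21.3%). The median was 0.39 against 0.06 over all genes. Agt, the precursor of angiotensin, was higher by 6.13 log2 units (SE 0.15, adjusted p = 1.15e-06), and the GABA transporter gene Slc6a11 by 2.58 (adjusted p = 2.97e-05). Dio2, which activates thyroid hormone, was lower by 3.77 log2 units (adjusted p = 5.78e-06), and Ranbp3l by 2.51 (adjusted p = 0.00118). Agt lay between -0.48 and -0.24 in the prefrontal cortex, between 3.74 and 4.29 in the amygdala and between 5.69 and 5.88 in the hypothalamus, the order seen for Itih3 and Sparc. Between amygdala and hypothalamus 5 of the 39 were called higher (13.5% of all genes) and 19 lower (15.9%). Between amygdala and prefrontal cortex 9 were called higher (12.1%) and 2 lower (10.2%). In this last contrast 28.2% of the 39 were called in either direction, near the 22.3% of all genes.

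Of 30 genes known from reactive astrocytes, 23 were fitted, and 6 (Lcn2, Steap4, Tgm1, Ptx3, Slc10a6 and B3gnt5) were not above background on any array. In the hypothalamus 8 were called higher and 4 lower than in the prefrontal cortex, beside 26.7% and 21.3% of all genes, with a median of -0.08 against 0.06 over all genes. The list was not tested against the members. Of the 23, 11 had a higher and 12 a lower mean in the hypothalamus. Amigo2, an adhesion protein, was higher by 3.48 (adjusted p = 9.91e-06) and Serpina3n, a protease inhibitor, by 1.65 (adjusted p = 0.000362). Cd109 was higher by 3.31. Sphk1 went the other way, with a difference of -2.90, and of -3.49 from its second probe.

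Other cells differed between the region samples as well. All 13 oligodendrocyte genes tested were called higher in the hypothalamus than in the prefrontal cortex (median 1.28). Levels were summed over the 12 with a value on all arrays, in units of the 75th percentile of the array. This sum ran from 145 to 195 in the hypothalamus, 91.1 to 136 in the amygdala and 60.5 to 92.8 in the prefrontal cortex. All 5 ependymal genes tested, which mark the lining of the ventricles, were higher in the hypothalamus (median 3.23), with a summed level of 13.6 to 16.7 against 2.16 to 2.91 in the amygdala and 1.76 to 1.96 in the prefrontal cortex. None of the ependymal or oligodendrocyte genes on the array was below background everywhere. Of 7 choroid plexus genes, 6 were called higher in the hypothalamus than in the prefrontal cortex (median 2.78). The choroid plexus sum covers 8 genes, 1 of which, Otx2, was below background on every array. It was 6.85 to 7.86 in the hypothalamus, 2.67 to 4.19 in the amygdala and 0.331 to 0.377 in the prefrontal cortex. Of 10 meningeal fibroblast genes, 1 was called higher and 5 lower in the hypothalamus. Of 12 neuronal genes, 8 were called lower in the hypothalamus than in the prefrontal cortex. These shares stand beside 26.7% of all genes called higher and 21.3% lower. The summed level of the astrocyte members themselves was 1040 to 1300 in the hypothalamus, 789 to 971 in the amygdala and 840 to 943 in the prefrontal cortex. This sum adds linear values, so members with strong signals weigh most, and the part of single members was not computed. The part of other cell types in the region differences of the members was not tested.

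The diet comparison asks whether restriction or repeated fasting and refeeding changed astrocyte transcripts. Over the 3 regions limma called no member between CR and AD, with 0% of all genes called. It called no member between RFR and AD either (0.0158% of all genes), and none between CR and RFR (0.0158%). At an unadjusted limma p under 0.05 there were 7, 6 and 6 of the 30 members in these contrasts, beside 16.5%, 6.16% and 14.8% of all genes, and the smallest adjusted p among members was 0.147. The contrasts share arrays, so their values are not independent of each other. All AD arrays lie on slide 1 and no CR array does, so in every region CR minus AD cannot be told apart from a slide difference. The same holds for RFR minus AD in the amygdala and hypothalamus, and for CR minus RFR in the amygdala and prefrontal cortex. Over regions the members' median was -0.08 between CR and AD, -0.15 between RFR and AD, and 0.07 between CR and RFR, each as the first minus the second, against -0.04, -0.03 and -0.01 over all genes.

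Within a region there is 1 array per diet and no test, and differences of at least 0.5 log2 units are counted as a description. In the amygdala, 1 member was higher and 3 were lower by that size in CR against AD, where 23.1% of all genes passed it. For RFR against AD in the amygdala the counts were 2 and 2 (13.4% of all genes), and for CR against RFR 3 and 2 (17.9%). In the hypothalamus they were 3 and 2 for CR against AD (14%), 1 and 3 for RFR against AD (4.87%), and 2 and 2 for CR against RFR (6.56%). In the prefrontal cortex they were 1 and 0 for CR against AD (11.7%), 0 and 3 for RFR against AD (6.38%), and 3 and 2 for CR against RFR (8.12%). In 6 of these 9 comparisons at most 4 of 30 members passed 0.5, and the most in any was 5.

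Medians of the 30 members lay between -0.18 and 0.16 in the 9 comparisons. The lowest was RFR minus AD in the hypothalamus (-0.18, 22 of 30 members lower, with 61% of all genes lower), and the highest CR minus RFR in the hypothalamus (0.16, 22 of 30 higher, with 56.1% of all genes higher). These share the RFR hypothalamus array. The medians over all genes were -0.06 and 0.03. Scaling each array by the median of its spots moved the median of all genes by over 0.1 for RFR minus AD in the amygdala, from -0.03 to -0.18, and the members' median from -0.08 to -0.23. The members' medians for CR minus AD changed sign under at least 1 other scaling in each region.

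**Figure D4:**
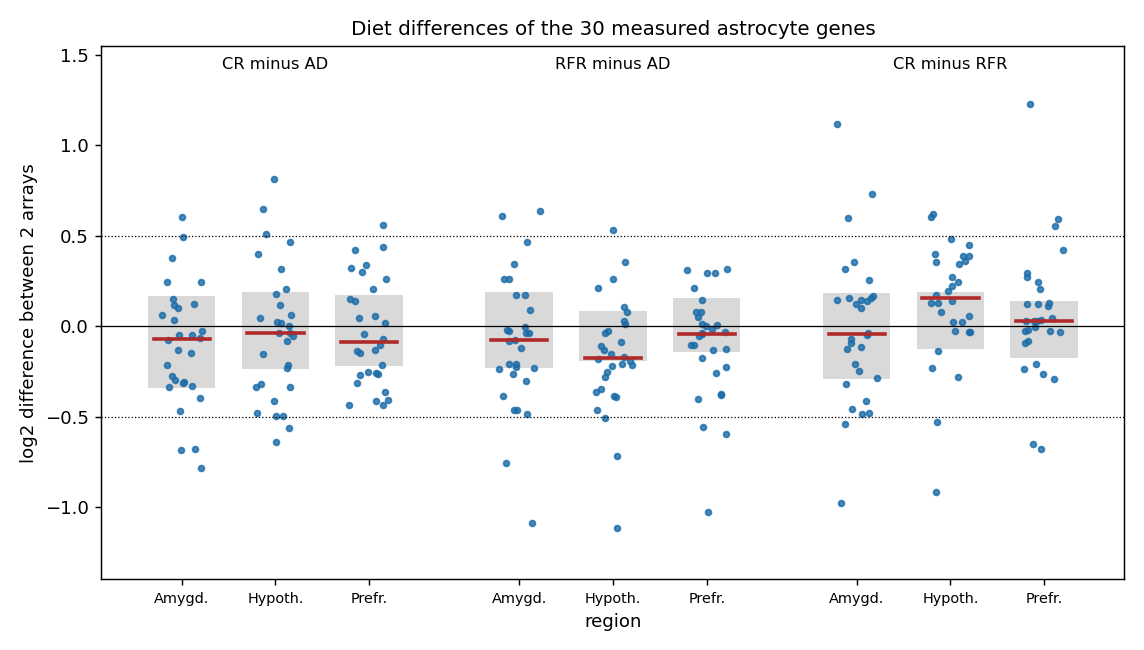
Log2 difference between the 2 arrays of a region (vertical axis) for each of the 30 measured astrocyte genes (points, spread sideways at random), with the members' median as a red line, the middle 50% of all genes as a grey box and dotted lines at 0.5 and -0.5. The medians lie between -0.18 and 0.16, and points beyond 1 belong to Slc4a4 and Gfap.

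Hes5 had its highest level on the RFR array of every region. Against AD it was higher in RFR by 0.26 in the amygdala, 0.53 in the hypothalamus and 0.32 in the prefrontal cortex, and against CR by 0.54, 0.53 and 0.68. Over regions CR lay 0.58 below RFR (SE 0.11, limma adjusted p = 0.147, between 0.063 and 0.797 over 22 alternatives), which did not pass the threshold. Id3 had its lowest level on the CR array of every region, below RFR by 0.98, 0.23 and 0.65 and below AD by 0.34, 0.32 and 0.44 (over regions -0.62 against RFR, SE 0.16, limma adjusted p = 0.189). Of the 30 members, 4 (Id3, Hes5, Sparcl1 and Slc7a10) were lower in CR than in RFR in all 3 regions, and 8 were higher. Of the 11231 genes that were well above background and had a value on all arrays, 24.5% were lower and 22.3% higher. The second Sparcl1 probe differed in sign, with -0.16, 0.11 and 0.05 in amygdala, hypothalamus and prefrontal cortex.

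Ppp1r3c and Pla2g7 had their highest level on the CR array of every region. Ppp1r3c was 0.74, 0.98 and 0.25 in the amygdala, 0.34, 0.99 and 0.60 in the hypothalamus, and 0.27, 0.83 and 0.24 in the prefrontal cortex. The 3 CR arrays were above all others, by 0.48 over AD (SE 0.15, adjusted p = 0.228) and 0.57 over RFR (adjusted p = 0.188) in the fit over regions. The second Ppp1r3c probe also gave CR above AD in each region, by 1.37, 0.26 and 0.25, with RFR above AD in the amygdala by 1.29 where the first probe gave -0.49. Pla2g7 was higher in CR than AD by 0.38, 0.47 and 0.42 (over regions 0.42, SE 0.10, adjusted p = 0.206). Without the AD amygdala array Ppp1r3c was called for CR minus AD (0.64, adjusted p = 0.0479), as were 561 of all 12622 genes. Without any amygdala array Ppp1r3c (0.60), Pla2g7 (0.44) and Acsbg1 (-0.44) were called, with adjusted p of 0.0478, 0.0456 and 0.0476. These are 3 of 30 members, beside 1233 of all 12548 genes called in the same fit. Only 2 regions then remain, and the calls rest on 2 residual degrees of freedom.

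The glutamate transporter genes Slc1a2 and Slc1a3 and the gap junction gene Gja1 had lower values on the RFR array than on the AD array in each region. Slc1a2 was lower in RFR than AD by 0.23, 0.25 and 0.37 log2 units in amygdala, hypothalamus and prefrontal cortex (over regions -0.29, SE 0.09, adjusted p = 0.721). Its second probe differed in sign, with 0.37, 0.26 and -0.58. Slc1a3, Gja1 and also Aldh1l1, Acsbg1, S100b, Clu, Ntsr2, Mlc1, Atp1b2, Cst3 and Htra1 had negative values of RFR minus AD in all 3 regions, which makes 12 of 30 members, beside 16.8% of all genes. The second Ntsr2 probe gave 0.06 in the amygdala, -0.54 in the hypothalamus and -0.39 in the prefrontal cortex. Vim, Hes5 and Entpd2 had positive values of RFR minus AD in all 3 regions, beside 10.8% of all genes. For CR minus AD, 10 members were lower and 4 higher in all 3 regions, beside 25.4% and 12.3% of all genes. S100b was lower in CR by 0.68, 0.33 and 0.31 (over regions -0.44, SE 0.12, adjusted p = 0.214).

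Gfap, Mlc1, Acsbg1 and Vim differed by at least 0.5 between diets in the hypothalamus. Gfap was lower in RFR than AD by 1.12 in the hypothalamus and higher by 0.47 in the amygdala, and in CR it was higher by 0.60 in the amygdala and lower by 0.49 in the hypothalamus. Mlc1 was lower in the hypothalamus by 0.64 in CR and 0.72 in RFR, and Acsbg1 there by 0.48 and 0.51. Vim was 0.51 higher in CR in the hypothalamus. In the amygdala Id3 (0.64) and Sparc (0.61) were higher in RFR than AD. The second Sparc probe gave 0.28. Aqp4 was lower in RFR than AD by 0.75 in the amygdala, but its other probes gave -0.06 and -0.08. In the prefrontal cortex all 3 Aqp4 probes were lower in RFR, by 0.56, 0.80 and 0.73, and in CR, by 0.43, 0.90 and 0.91. In the hypothalamus the probes disagreed, with CR minus AD of 0.05 for the first and -0.77 and -0.68 for the others. RFR minus AD there was 0.08, -0.26 and -0.31. Htra1 was lower in RFR by 0.60 in the prefrontal cortex, where both arrays lie on slide 1.

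Slc4a4 had the widest range over diets. Its level was -1.90, -1.87 and -2.99 in the amygdala, -1.79, -2.35 and -1.43 in the hypothalamus, and -2.45, -2.25 and -3.48 in the prefrontal cortex. RFR minus AD was -1.09 in the amygdala and -1.03 in the prefrontal cortex but 0.36 in the hypothalamus. Mt3 had a level of 2.81, 2.02 and 2.34 in the amygdala, 2.25, 3.07 and 2.46 in the hypothalamus, and 2.37, 2.67 and 2.42 in the prefrontal cortex. CR minus AD for Mt3 was -0.78 in the amygdala and 0.82 in the hypothalamus. The CR amygdala array is alone on slide 3, so that its slide and its diet cannot be told apart. The CR hypothalamus array lies on slide 2, also apart from the AD arrays. In the amygdala Cst3 (-0.68) and S100b (-0.68) were the members lowest in CR after Mt3.

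**Figure D5:**
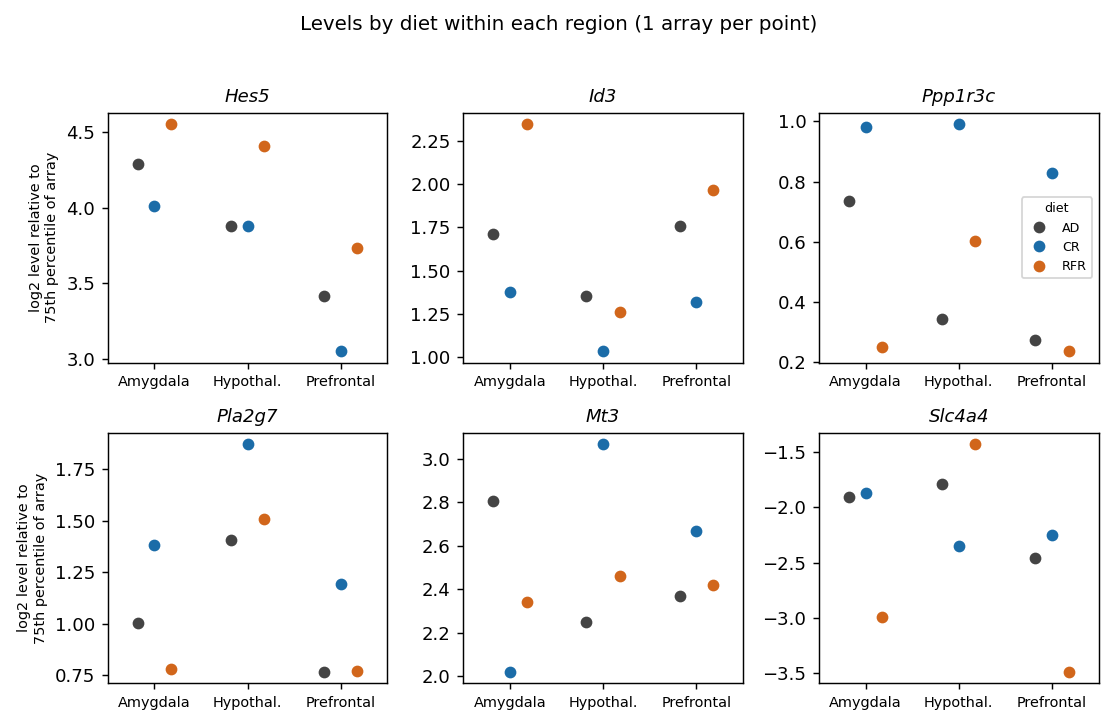
Log2 level above the array's 75th percentile (vertical axis, scaled for each gene) for 6 astrocyte genes in the 3 regions, with 1 point per array coloured by diet. RFR points are highest in each region for Hes5, CR points are lowest for Id3 and highest for Ppp1r3c and Pla2g7, and the order of diets for Mt3 and Slc4a4 changes between regions.

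For 16 of 30 members the range of the region means exceeded the largest range over diets within a region, and for 14 it did not. The first group included Itih3 (4.19 against 0.49), Sparc (3.40 against 0.61) and Slc7a10 (0.94 against 0.21). The second included Mt3 (0.20 against 0.82), Ppp1r3c (0.21 against 0.73) and Id3 (0.60 against 0.98). These measures are unlike, because a region mean averages several arrays. The diet range comes from single arrays, and the largest over the regions was taken. Noise alone would tend to make the diet range larger, so the counts do not weigh diet against region. The same counts were not made over all genes.

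Values of other cell types are set beside these differences; limma called no oligodendrocyte or choroid plexus gene for CR minus AD, RFR minus AD or CR minus RFR over regions (at an unadjusted p under 0.05, 3, 2 and 8 of 13 oligodendrocyte genes and 1, 1 and 0 of 7 choroid plexus genes). With 1 array per diet, all 13 oligodendrocyte genes had higher values in CR than in RFR in the amygdala (median 0.47) and in the hypothalamus (0.26), and all 12 measured in the prefrontal cortex did (0.53), beside 43.6%, 56.1% and 46.5% of all genes. The summed level of 12 of them was 136 in CR and 91.1 in RFR in the amygdala, 195 and 145 in the hypothalamus, and 92.8 and 60.5 in the prefrontal cortex. The medians of the astrocyte members for CR minus RFR were -0.04, 0.16 and 0.03. On the RFR amygdala array all 6 choroid plexus genes measured were above the AD amygdala array (median 1.64), beside 45.8% of all genes. The members' median there was -0.08. The summed level of 8 choroid plexus genes was 4.19 against 2.67. The part of these cell types in the diet differences of the members was not tested. Of the 23 reactive astrocyte genes limma called none for CR minus AD, RFR minus AD or CR minus RFR over regions, with 1, 2 and 3 at an unadjusted p under 0.05, beside 16.5%, 6.16% and 14.8% of all genes.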

How the data were processed

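Per the file headers, scans were read with Agilent Feature Extraction. The deposited processed signal, an intensity, has the background removed and a spatial trend corrected array by array, with arrays not yet scaled to each other, per the file headers; median spot and local background intensities were deposited beside it. Quality marks deposited per spot are neither (0 or 1, unit other). A further table by the authors gives, for every probe, the ratio to the AD array of the region: 99.28% to 99.36% of the values of CR and RFR arrays lay within 0.01 log2 units of the scanner ratio after 1 constant per array.

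From each spot's log2 processed signal the 75th percentile over the array's 43379 noncontrol spots was subtracted. Spots marked as outliers were dropped before repeat spots were averaged. Of 41174 probes, 22951 matched a symbol by RefSeq accession and 18223 did not (assembly GRCm38.p6, used for names and promoters). The probe with the highest mean stands for a gene. Genes well above background on at least 3 arrays, with at least 6 values, were fitted with limma 3.58.1 in R 4.3.3 (lmFit, eBayes; region plus diet); the fit was tested on simulated data. Promoters were searched with Python 3.11.15. Alternatives were normexp (offset 50), quantile or median scaling, all probes, filters, trended variances, slide terms, no diet term, the authors' table, and leaving out arrays. Members in each region contrast with the largest differences past the threshold, up to 8 in each direction, were given their 9 values. All members may be named, and of each other list up to 4 genes per region contrast. Members and lists were chosen with earlier results of these data known.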

Additional observations from a re-analysis of the deposited data

Results flagged for a closer look

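The diet differences of 2 members had opposite signs of at least 0.5 log2 units in a pair of regions. With 1 array per region and diet these differences between regions were not tested. For Mt3, CR minus AD was -0.78 in the amygdala and 0.82 in the hypothalamus, a gap of -1.60. For Slc4a4, CR minus RFR was 1.12 in the amygdala and -0.92 in the hypothalamus, a gap of 2.04, and the hypothalamus differed from the prefrontal cortex (1.23) by -2.15. The CR amygdala array behind the first value of each gene is alone on its slide, and its part in the gap was not tested. For Slc4a4 the AD and CR arrays of the amygdala were nearly level, and the RFR array lay below both. Slc4a4 was dim, although well above background on all 9 arrays.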

How the results depend on the processing

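The limits are 1 pooled sample per region and diet, diets that share a pool across regions, and slides that partly follow the diet. Called members that kept the call in all 22 alternatives numbered 5 of 10 for amygdala minus hypothalamus (Entpd2, Itih3, Slc1a2, Slc7a10 and Sparc), 3 of 8 for amygdala minus prefrontal cortex (Hes5, Itih3 and Sparc), and 12 of 17 for hypothalamus minus prefrontal cortex. The calls lost most often were those of Atp1b2 (called in 6 of 22) and Mlc1 (10) for amygdala minus hypothalamus, and of Id3 (8) and Vim (10) for hypothalamus minus prefrontal cortex. Leaving out 1 array, diet pool or region at a time gave 5 to 10, 3 to 10 and 12 to 20 called members in these contrasts. It gave 0 to 3, 0 to 0 and 0 to 0 for CR minus AD, RFR minus AD and CR minus RFR. The count of 3 for CR minus AD came without the amygdala, where 1233 of 12548 genes were called. Leaving out the CR pool or the RFR pool lowered the count for amygdala minus hypothalamus to 5. Over all genes it fell from 3717 to 2235 or 1427. The count for amygdala minus prefrontal cortex fell to 3 without either pool, and over all genes from 2814 to 1567 or 895. Without the RFR prefrontal cortex array this last contrast had 5 members called, and 1628 of all genes. Without the diet term, which is the replicate block here, 6 members were called for amygdala minus hypothalamus in place of 10. Over all genes there were 3313 in place of 3717. The block moved no other region count of members by over 1.5 times. With slide as a fixed term 4 in place of 8 were called for amygdala minus prefrontal cortex, with 2 residual degrees of freedom. Over all genes there were 1390 in place of 2814. Medians of the members within a region were small and moved with the scaling. For CR minus AD in the amygdala (-0.07), the median was -0.0976 with normexp, 0.0306 with quantile scaling, -0.1677 with median scaling, -0.0361 with all probes and 0.0615 in the authors' table. In the hypothalamus (-0.04) it was -0.0052 with normexp, 0.0151 with quantile scaling, -0.0014 with median scaling and 0.0786 in the authors' table. In the prefrontal cortex (-0.09) it was -0.0357 with quantile scaling, 0.0046 with median scaling, -0.117 with all probes and 0.0226 in the authors' table. For RFR minus AD in the amygdala (-0.08) it was -0.1492 with normexp, 0.0107 with quantile scaling, -0.2267 with median scaling and -0.0033 in the authors' table. In the hypothalamus (-0.18) it was -0.0345 with quantile scaling and -0.0981 in the authors' table. For CR minus RFR, quantile scaling gave 0.0689 in the amygdala (-0.04) and 0.0209 in the hypothalamus (0.16). The cause was not tested. Of the members' own region differences under settings that keep all arrays, 846 comparisons kept their side of the threshold, 30 lost it and 24 gained it, and none changed sign while called.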
